A study of Mus musculus with 63 samples.

Results

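Chrna6, Doc2b, Nwd2, Tuba8 and Slc2a13 are 5 of the 34745 genes in the pituitary table, picked by name because their transcripts were higher in the stressed pituitaries of 1 of 4 sets and much less so, or not at all, in the other sets. RNA was sequenced in bulk from pituitaries and ovaries of female C57BL/6 mice, either stressed by chronic unpredictable mild stress (CUMS), in which mild stressors of different kinds alternate, or left unstressed as controls. The titles combine an age of 2 or 6 months with a duration of 8 or 12 weeks, which gives the younger sets 2M-8W and 2M-12W and the older sets 6M-8W and 6M-12W. The design line of the series instead ties the age of 2 months to 8 weeks and that of 6 months to 12 weeks, so the meaning of the 6M-8W and 2M-12W sets rests on the titles, which were followed here. Each set holds 4 stressed and 4 control pituitaries, and 4 stressed and 4 control ovaries except 6M-12W ovary with 3 controls. No transgene or drug is named for any group, and the series asks how stress acts on the hypothalamic-pituitary-ovarian axis of younger and older females.

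The 5 genes belong to different families. Chrna6 encodes the alpha6 subunit of neuronal nicotinic acetylcholine receptors, ion channels best known from midbrain dopamine neurons, where this subunit often assembles with the beta3 subunit. Doc2b encodes a calcium sensor that binds the vesicle fusion machinery and promotes release from neurons and secretion from endocrine cells. Slc2a13 encodes a transporter that carries protons and myo-inositol, a precursor of phosphoinositide lipids, into cells. Tuba8 encodes a divergent alpha-tubulin, a building block of microtubules, and Nwd2 a protein with a NACHT domain and WD repeats whose function is little described. Endocrine cells of the pituitary release their hormones from secretory granules by calcium-triggered fusion, so Doc2b acts at a step that these cells use, while a secretory role of Tuba8 and Nwd2 is not established.

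Positions are those of mouse build GRCm38. Chrna6 (ENSMUSG00000031491) spans chromosome 8 from 27403214 to 27413944 on the minus strand, and Doc2b (ENSMUSG00000020848) chromosome 11 from 75768966 to 75796049 on the minus strand. Nwd2 (ENSMUSG00000090061) spans chromosome 5 from 63649102 to 63810546 on the plus strand, Tuba8 (ENSMUSG00000030137) chromosome 6 from 121210696 to 121226854 on the plus strand, and Slc2a13 (ENSMUSG00000036298) chromosome 15 from 91267696 to 91573261 on the minus strand. All are protein-coding, and none shares a chromosome with another.

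Promoter sequences from RefSeq (build GRCm38.p6, 250 bases before to 50 after the start) were matched for 3 of the 5 genes, Slc2a13, Tuba8 and Nwd2, and are shown because the 5 genes were high together in 1 arm. They run 5′ to 3′ on the gene's strand, Slc2a13 at chr15:91573212-91573511 (minus), Tuba8 at chr6:121210484-121210783 (plus) and Nwd2 at chr5:63648853-63649152 (plus), with motif matches in capitals.
Slc2a13: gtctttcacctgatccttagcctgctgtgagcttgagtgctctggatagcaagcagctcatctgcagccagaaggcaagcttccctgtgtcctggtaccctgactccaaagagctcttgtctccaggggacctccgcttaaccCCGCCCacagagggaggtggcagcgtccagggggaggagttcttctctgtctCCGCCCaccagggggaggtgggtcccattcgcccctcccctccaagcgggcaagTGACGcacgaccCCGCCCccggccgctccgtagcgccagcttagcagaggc
Tuba8: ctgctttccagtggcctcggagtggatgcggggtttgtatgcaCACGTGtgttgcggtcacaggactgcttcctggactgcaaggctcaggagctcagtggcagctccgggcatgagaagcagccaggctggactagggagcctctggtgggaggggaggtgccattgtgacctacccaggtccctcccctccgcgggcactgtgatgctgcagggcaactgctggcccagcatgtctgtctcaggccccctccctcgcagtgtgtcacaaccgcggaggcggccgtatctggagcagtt
Nwd2: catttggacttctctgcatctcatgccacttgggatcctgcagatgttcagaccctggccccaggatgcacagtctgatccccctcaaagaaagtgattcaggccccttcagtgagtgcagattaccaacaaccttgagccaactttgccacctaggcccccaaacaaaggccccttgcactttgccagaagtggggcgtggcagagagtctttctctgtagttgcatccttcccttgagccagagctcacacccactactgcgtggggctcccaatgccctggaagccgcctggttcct

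In these windows 8 motifs were searched on both strands. They were the cAMP response element TGACGTCA and its half-site TGACG (part of the full site). Next were the full glucocorticoid response element and its half-site TGTTCT (part of the full site). The others were the E-box CACGTG, the nerve growth factor-induced B (NGFI-B) response element AAAGGTCA, the TATA box TATAAA and the GC box GGGCGG. Slc2a13 held the half-site TGACG at position -1 from the start, which 20.8% of all 32851 promoters hold, and GC boxes at -107, -55 and 11 (35.7% of promoters), read on the other strand as CCGCCC. Tuba8 held an E-box at -207 (7.15% of promoters) and Nwd2 none of the motifs. No motif was found in more than 1 of the 3 windows, and the half-site TGTTCT, present in 19% of promoters, was in none of them.

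Total counts were 13514270 to 24924584 in the 32 pituitary libraries and 12536371 to 28777668 in the 31 ovary libraries. The pituitaries were what their label says, with lactotrope markers summing to 100661 to 165018 CPM. Mitochondrial genes took 2.88 to 3.59% of counts in stressed and 2.81 to 3.18% in control 6M-8W pituitaries, and 4.19 to 10.02% in 6M-12W controls, where library 3, at 10.02%, stood apart. Nothing in the labels says that the libraries of a group come from separate animals, so p-values measure the spread between these samples, which may be technical.

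The values given next are CPM, the reads of a gene scaled to equal library size, on library sizes scaled by TMM factors, in the order of replicates 1 to 4, and the folds come from a fit across all genes. Since the pituitary stress comparisons chose the 5 genes, their levels and folds in the pituitary are a description with no test. In bulk tissue, more or fewer cells of a type cannot be told apart from more or less RNA per cell.

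Chrna6 had the largest fold of the 5 genes in 6M-8W. Stressed 6M-8W pituitaries held 108, 135, 152 and 121 CPM, against 27.7, 20.4, 13.2 and 24.3 CPM in 6M-8W controls, so that all stressed libraries lay well above all controls. The fold was 2.59 ± 0.45 (log2, stressed over control, ± SE), or 6.01 times. In 2M-8W the stressed libraries held 87.0, 109, 57.4 and 43.1 CPM, and the controls 106, 29.4, 21.96 and 41.9 CPM. There the arms overlapped, with control library 1 as high as the stressed ones, and without that control the fold was 1.26. Stressed 2M-12W pituitaries were at 45.2, 60.7, 34.1 and 72.5 CPM and their controls at 34.1, 23.3, 34.9 and 46.0 CPM, again with overlap. In 6M-12W the stressed libraries were at 31.2, 19.7, 24.2 and 19.99 CPM, while the controls spread widely, at 59.2, 38.1, 6.56 and 21.6 CPM. The folds in these sets were 0.57 ± 0.43, 0.62 ± 0.43 and -0.40 ± 0.44 on the log2 scale, none much larger than its SE. Without 6M-12W control 1 the last of them was 0.10.

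Doc2b was the most uniform of the 5 genes within the stressed 6M-8W arm and the one whose higher level was not limited to that set. It stood at 41.8, 39.7, 37.5 and 40.8 CPM in stressed 6M-8W pituitaries, against 7.43, 8.95, 5.43 and 5.90 CPM in 6M-8W controls (2.52 ± 0.22, or 5.76 times). The stressed libraries differed from one another by less than the controls of any set, relative to their mean. In 2M-8W its stressed libraries held 14.8, 27.0, 14.8 and 14.5 CPM, and the controls 13.4, 11.7, 12.7 and 6.30 CPM (0.68 ± 0.21). In 2M-12W they held 22.3, 23.7, 15.5 and 17.6 CPM, against 8.21, 11.3, 10.95 and 6.54 CPM in controls (1.10 ± 0.21). In 6M-12W they held 12.7, 13.1, 12.1 and 15.2 CPM, against 11.1, 8.75, 10.2 and 11.6 CPM in controls (0.34 ± 0.21). Every stressed library thus lay above every control of its own set in all 4 sets, by a wide gap in 6M-8W and a narrow one in 2M-8W and 6M-12W. All stressed libraries lay above all controls for 7.44% of the 17001 genes tested in 6M-8W, 1.97% (2M-8W), 4.66% (2M-12W) and 2.41% (6M-12W).

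Slc2a13 separated the arms in 6M-8W and not in the other sets. Its stressed 6M-8W libraries held 167, 237, 297 and 268 CPM, against 94.4, 91.6, 64.8 and 91.5 CPM in 6M-8W controls (1.50 ± 0.18, or 2.83 times). All stressed libraries lay above the controls, with library 1 the lowest. In 2M-8W the stressed libraries held 68.0 to 125 CPM and the controls 74.9 to 104 CPM, and in 2M-12W the ranges were 67.2 to 90.1 CPM in stressed and 66.9 to 90.8 CPM in control pituitaries. In 6M-12W the stressed libraries lay at 115 to 124 CPM, inside the 99.9 to 166 CPM of their controls. The folds in these sets were 0.13, 0.01 and -0.08, each with an SE of 0.18.

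Nwd2 was a low transcript whose stressed 6M-8W libraries spread the most. They held 2.99, 13.1, 6.77 and 9.60 CPM, against 1.72, 1.27, 2.09 and 2.21 CPM in 6M-8W controls (2.16 ± 0.33, or 4.45 times). Libraries 2, 3 and 4 lay far above the controls, while library 1 lay close to them and within the range of the other sets. In the 24 libraries of those sets Nwd2 ran from 1.03 to 3.72 CPM, with folds of -0.13 ± 0.34 in 2M-8W, 0.38 ± 0.34 in 2M-12W and -0.26 ± 0.33 in 6M-12W.

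Tuba8 had the smallest fold of the 5 in 6M-8W and pointed the other way elsewhere. Stressed 6M-8W pituitaries held 4.79, 4.97, 6.14 and 7.39 CPM, against 3.21, 3.23, 3.76 and 2.56 CPM in 6M-8W controls (0.87 ± 0.20, or 1.83 times). The arms did not overlap, by a gap of about 1 CPM. In 2M-8W its stressed libraries held 3.30, 2.84, 2.33 and 2.68 CPM and the controls 4.36, 3.83, 3.13 and 5.62 CPM, with only the highest stressed library above the lowest control. The folds were -0.60 ± 0.20 in 2M-8W, -0.36 ± 0.20 in 2M-12W and -0.31 ± 0.20 in 6M-12W.

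**Figure D1:**
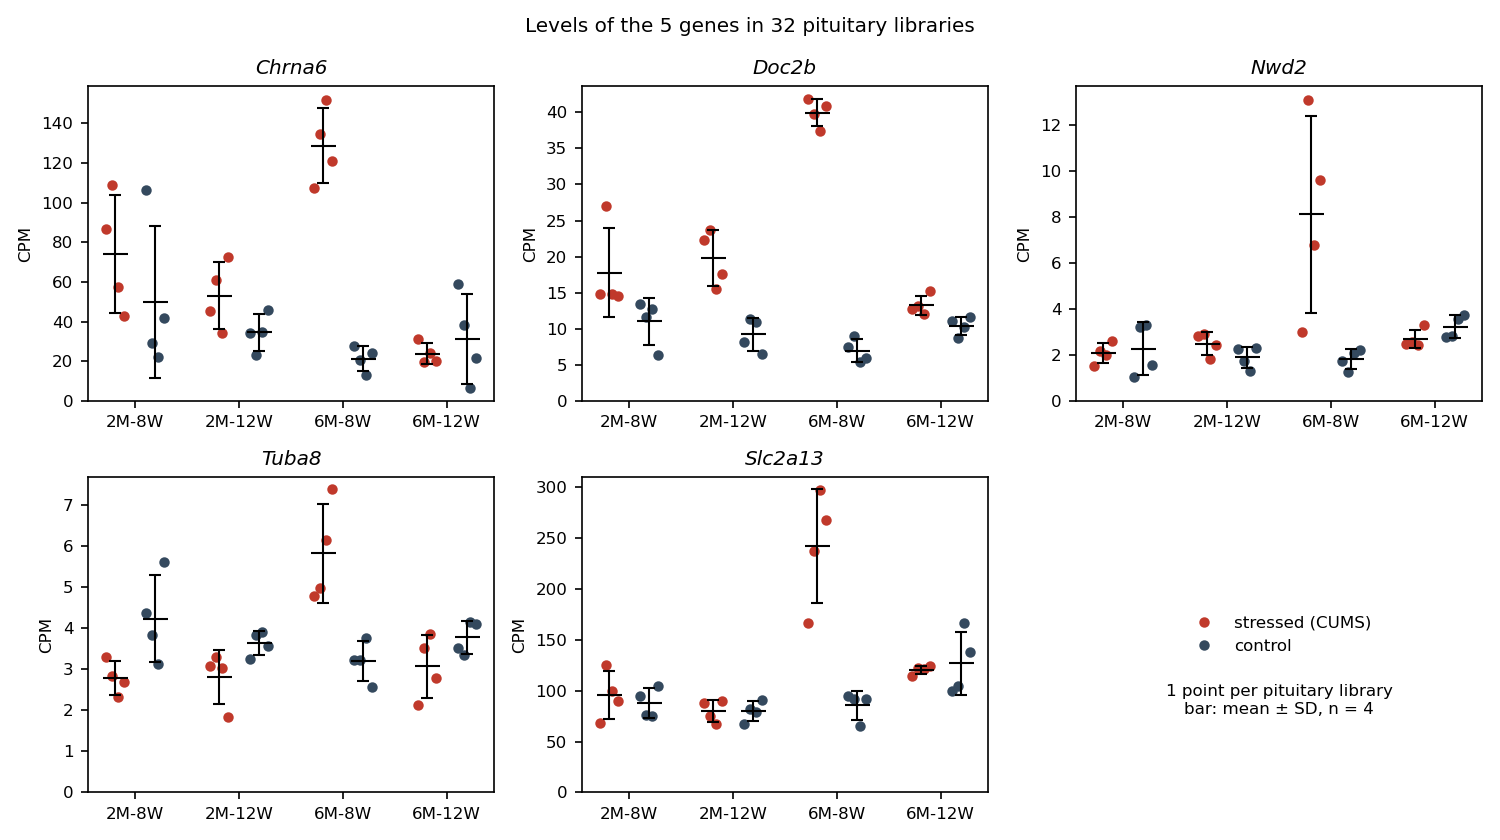
Level of each of the 5 genes in CPM (y axes, from 0) in every pituitary library, by set (x axes), with stressed libraries in red left of controls in dark blue, and bars for the mean ± SD of 4 libraries. The stressed 6M-8W libraries stand above their controls in all 5 panels, Doc2b also separates the arms of the other sets, and Nwd2 in stressed 6M-8W library 1 is at 2.99 CPM, near the controls.

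In 6M-8W the stressed libraries of all 5 genes lay above all controls, and the adjusted p of each was under 0.05, which holds for 4.7% of the genes tested (2.3% with a higher level in stressed mice). For Tuba8 this was lost without stressed library 4 (adjusted p = 0.0508 in edgeR). In the other sets only Doc2b in 2M-12W was under 0.05 (adjusted p = 0.00941 in edgeR), where 0.582% of genes were. Nothing is read from these calls, because the comparisons chose the genes. Among the 17001 genes the 6M-8W fold of Chrna6 ranked 10, that of Doc2b 12, Nwd2 25, Slc2a13 60 and Tuba8 260. The 6M-8W fold minus the mean fold of the other 3 sets was 2.33 ± 0.51 for Chrna6, 1.82 ± 0.25 for Doc2b, 2.16 ± 0.38 for Nwd2, 1.30 ± 0.23 for Tuba8 and 1.48 ± 0.20 for Slc2a13. For Chrna6 the adjusted p of this difference was 0.0501 in edgeR without stressed 6M-8W library 3. In all 135 genes, or 0.794%, were higher in stressed 6M-8W pituitaries and also had a higher fold there than in the other sets, so the 5 are a selection from a larger group. Across all genes 1.37% passed the test of this difference.

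The order of the 8 group means shows how far the stressed 6M-8W arm stood off. Its range was separate from that of the next group for Doc2b, where stressed 2M-12W pituitaries followed, and for Slc2a13, where 6M-12W controls followed. For Chrna6 the arm's range just met that of stressed 2M-8W pituitaries, at 108 to 152 against 43.1 to 109 CPM. For Tuba8 the next group was the 2M-8W controls, at 3.13 to 5.62 CPM, and for Nwd2 the 6M-12W controls, at 2.78 to 3.72 CPM, and both ranges overlapped that of the arm. Below the highest group, neighbours in the order overlapped for the 5 genes without exception. The lowest mean belonged to the 6M-8W controls for Chrna6 (21.4 ± 6.23 CPM, SD, n = 4), Doc2b (6.93 ± 1.60) and Nwd2 (1.82 ± 0.42), so the large folds of these genes in 6M-8W also rest on low controls.

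Per length of transcript, in the deposited FPKM, Chrna6 was the most abundant of the 5 in stressed 6M-8W pituitaries, at 44.3 ± 6.83 FPKM against 7.49 ± 2.20 FPKM in 6M-8W controls (SD, n = 4 each). Slc2a13 stood at 26.9 ± 6.19 FPKM in stressed and 9.68 ± 1.62 in control pituitaries, so that among controls it ranked above Chrna6. Doc2b was at 9.15 ± 0.38 FPKM in stressed and 1.62 ± 0.40 in control pituitaries, Tuba8 at 2.57 ± 0.50 in stressed and 1.43 ± 0.23 in control pituitaries, and Nwd2 at 0.554 ± 0.295 in stressed and 0.126 ± 0.027 in control pituitaries. Nwd2 rested on 45 to 209 reads per stressed and 22 to 37 per control library, Tuba8 on 72 to 161 per stressed and 43 to 63 per control library, and the other 3 genes on at least 91 reads in each.

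Within the stressed 6M-8W arm the genes did not follow a common order of libraries. Library 1 was the lowest for Chrna6, Nwd2, Tuba8 and Slc2a13 and the highest for Doc2b, while library 3 was the highest for Chrna6 and Slc2a13, library 2 for Nwd2 and library 4 for Tuba8. Pearson's r of log2 CPM between pairs of the 5 genes ran from 0.26 (Chrna6 with Tuba8) to 0.75 (Nwd2 with Slc2a13) over the 32 pituitary libraries. Over the 28 libraries without the stressed 6M-8W arm it ran from -0.37 (Doc2b with Tuba8) to 0.47 (Chrna6 with Doc2b). As deviations from the group means it lay between -0.32 and 0.19. These values are a description of libraries that share sets and handling. The genes were picked for being high in that arm, so a lower r without it follows from the choice.

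**Figure D2:**
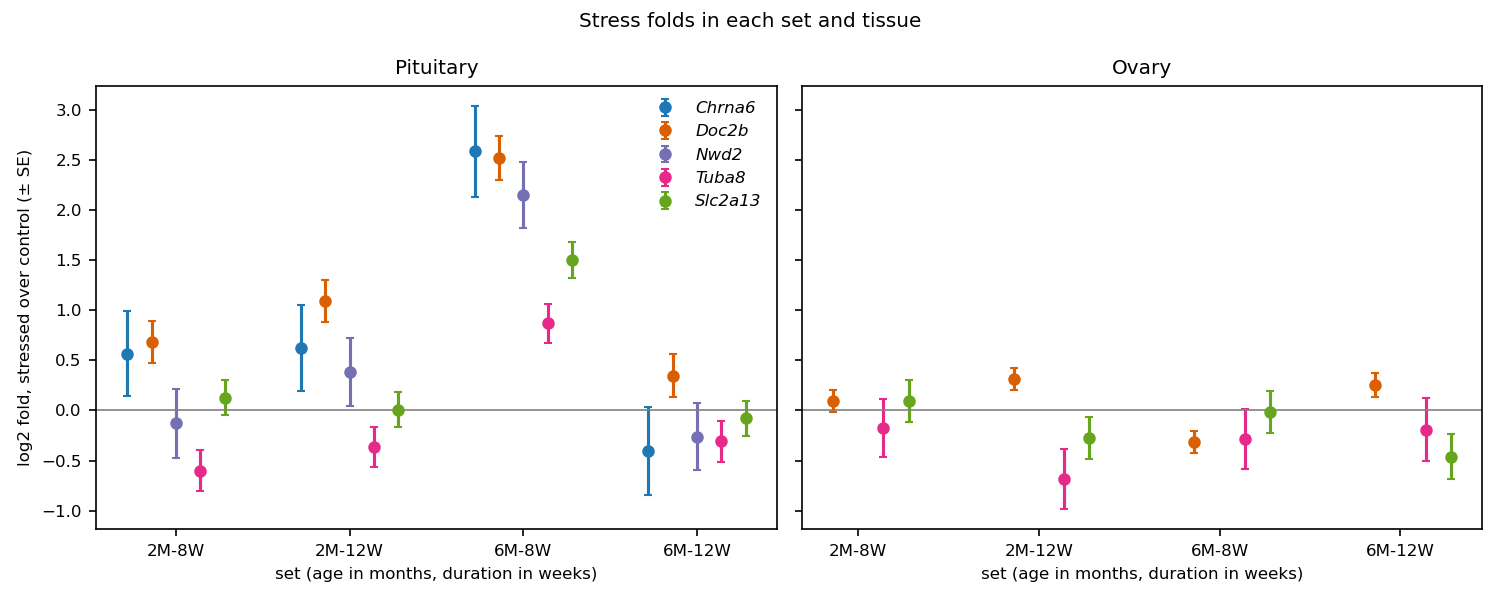
Log2 fold of stressed over control libraries ± SE (y axis) for each gene by set (x axis) in pituitary (left) and ovary (right). In pituitary the 6M-8W folds run from 0.87 to 2.59 and the others from -0.60 to 1.10, while in ovary the folds of Doc2b, Tuba8 and Slc2a13 run from -0.68 to 0.32. Chrna6 and Nwd2 were too low in ovary to be fitted.

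The ovary was not used to choose the genes and gives a test. Chrna6 and Nwd2 had 0 to 3 reads in each of the 31 ovary libraries, at most 0.13 CPM, and did not pass the filter on low counts, so 3 of the 5 genes were tested there. Doc2b was more abundant in ovary than in pituitary, at 50.8 to 98.9 CPM over the 31 libraries, on tables scaled apart for each tissue. Tuba8 ran from 0.88 to 3.18 CPM and Slc2a13 from 3.06 to 7.45 CPM. None of the 3 was called in a single ovary set by edgeR's quasi-likelihood test adjusted over all genes, where the share of genes called was 1.12% in 6M-8W and, in the other sets, 6.26% (2M-8W), 6.74% (2M-12W) and 11.4% (6M-12W). The lowest adjusted p of Tuba8 was 0.168 (2M-12W, -0.68 ± 0.30) and that of Slc2a13 0.185 (6M-12W, -0.46 ± 0.23).

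Doc2b in the 6M-8W ovary pointed the opposite way from the pituitary. Stressed 6M-8W ovaries held 60.3, 70.2, 61.8 and 67.4 CPM, against 80.4, 79.6, 73.8 and 88.5 CPM in 6M-8W control ovaries, with all stressed libraries below all controls, as for 5.57% of ovary genes (-0.31 ± 0.11, adjusted p = 0.152 in edgeR). In the other ovary sets its folds were 0.09 ± 0.11 in 2M-8W, 0.32 ± 0.11 in 2M-12W (adjusted p = 0.0789) and 0.26 ± 0.12 in 6M-12W (adjusted p = 0.156). The 6M-8W fold was lower than the mean of the other sets by 0.53 ± 0.13 (-0.53 on the log2 scale, adjusted p = 0.0218 in edgeR), a test that 4.09% of ovary genes passed. It stayed past the threshold in 31 of 35 alternatives (adjusted p from 0.00395 to 0.0647) and lost it without stressed 6M-8W ovary 3 or without 6M-8W control ovary 1, 2 or 4. The same difference was 0.07 ± 0.34 for Tuba8 (adjusted p = 0.938) and 0.20 ± 0.24 for Slc2a13 (adjusted p = 0.685).

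Among unstressed pituitaries the 5 genes are given with no test, since these controls are part of the stress folds by which the genes were picked. Slc2a13 stood at 99.9, 104, 166 and 138 CPM in 6M-12W controls and at 66.9, 81.9, 78.8 and 90.8 CPM in 2M-12W controls, with no overlap and a fold of 0.67 ± 0.18. The share of mitochondrial counts moved with it, at 4.19, 5.86, 10.02 and 6.19% in 6M-12W controls against 3.12 to 3.41% in 2M-12W controls, and control 3, the highest for Slc2a13, had the highest share. Its part in the level was not tested. With the 6M-12W controls 3 and 4 left out, an alternative chosen after seeing the data, the fold was 0.36, and with any single library left out it was 0.50 to 0.76. In the 8-week sets the Slc2a13 level averaged 85.6 ± 13.9 CPM (6M-8W controls) and 87.7 ± 14.4 CPM (2M-8W controls; SD, n = 4 each). Between 6M-12W and 2M-12W controls Nwd2 had a fold of 0.75 ± 0.34, Doc2b of 0.17 ± 0.22, Tuba8 of 0.05 ± 0.20 and Chrna6 of -0.13 ± 0.43. Between 2M-12W and 2M-8W controls the folds of the 5 genes ran from -0.53 to -0.14. Over all genes 32.5% were called between 6M-12W and 2M-12W controls and 1.04% between 2M-12W and 2M-8W controls. A batch that follows the sets cannot be told apart from age and duration in these comparisons.

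Of the other nicotinic receptor subunits 9 of 15 were tested in 6M-8W pituitaries, and 2 were higher and none lower (median fold 0.13, against 0.01 for all genes). Over all 17001 genes tested there, 391 (2.3%) were called higher and 408 lower. Chrnb3, the beta3 subunit that assembles with alpha6, stood at 90.5, 94.3, 81.6 and 60.4 CPM in stressed and at 47.7, 44.5, 27.6 and 37.5 CPM in control pituitaries, with no overlap (1.05 ± 0.29, adjusted p = 0.0311). Its fold did not differ from the mean of the other sets by the test (adjusted p = 0.309). Chrne, the epsilon subunit of the adult muscle receptor, was at 0.73 to 1.70 CPM in stressed and 0 to 0.18 CPM in control libraries (3.69 ± 0.71, adjusted p = 0.00144), on 89 reads over the 4 stressed and 6 over the 4 control libraries. Chrnb2, the beta2 subunit of many neuronal receptors, was at 83.1 CPM in stressed and 76.2 CPM in control pituitaries on average (0.13 ± 0.38, adjusted p = 0.913). None of these subunits was called in another pituitary set.

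Around Doc2b, of 38 tested genes for calcium sensors and vesicle fusion 2 were higher and 4 lower in stressed 6M-8W pituitaries (median fold -0.01). Of all 17001 genes 391 (2.3%) were higher and 408 lower. Syt1, the fast calcium sensor of synaptic release, was at 290 ± 34.3 CPM in stressed and 183 ± 18.5 CPM in control pituitaries (0.66 ± 0.11, adjusted p = 0.000455). Cplx2, a complexin that clamps and primes fusion complexes, was at 189 ± 36.2 CPM in stressed and 308 ± 21.2 CPM in control libraries (-0.71 ± 0.12, adjusted p = 0.000295). Sytl4, or granuphilin, which docks granules at the membrane, fell by 0.46 ± 0.07 (adjusted p = 8.52e-05) and the sensor Syt9 by 0.47 ± 0.10 (adjusted p = 0.00330). Sytl4 was also called lower in 2M-8W (-0.38 ± 0.07, adjusted p = 0.00329 in edgeR). The 6M-8W folds of Cplx2 and Syt1 differed from the mean of the other sets (adjusted p of 0.0190 and 0.0280 in edgeR). Those of Sytl4 and Syt9 were not called by this test. The core fusion proteins Snap25 (0.19, adjusted p = 0.334) and Vamp2 (-0.01, adjusted p = 0.971) were not called. Of 11 granule genes 2 were higher and none lower: Pam, the enzyme that amidates peptide hormones, by 0.41 ± 0.08 (adjusted p = 0.00283) and the granin Chgb by 0.45 ± 0.13 (adjusted p = 0.0364).

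Among 11 other alpha- and beta-tubulins tested, 1 was higher and 1 lower in stressed 6M-8W pituitaries (median fold -0.21). Among all 17001 genes 391 (2.3%) were higher and 408 lower. Tubb6, a beta-tubulin of many non-neuronal cells, stood at 28.9 ± 4.82 CPM in stressed and 13.8 ± 1.74 CPM in control libraries (1.06 ± 0.16, adjusted p = 7.07e-05), and Tubb3, typical of neurons, at 20.4 ± 4.98 CPM in stressed and 36.2 ± 2.89 CPM in control libraries (-0.83 ± 0.18, adjusted p = 0.00537). Both also differed from the mean of the other sets, by 1.23 ± 0.18 (adjusted p = 0.000311) and -0.93 ± 0.21 (adjusted p = 0.0192). Of 15 tested genes for hexose transporters and inositol handling none was higher and 1 lower (median fold -0.04): Slc2a9, a urate transporter, fell by 0.60 ± 0.15 (adjusted p = 0.0124). None of the 3 tested genes for NACHT and WD repeat proteins was called.

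Lists that bear on the stress itself gave different counts. Of 20 glucocorticoid-responsive genes 9 were higher and none lower in stressed 6M-8W pituitaries (median fold 0.51), among them Fkbp5, the co-chaperone of the glucocorticoid receptor, at 154 ± 19.8 CPM in stressed and 65.5 ± 9.09 CPM in control libraries (1.23 ± 0.14, adjusted p = 2.03e-06). Map3k6, a stress-activated kinase, rose by 1.46 ± 0.19, the metallothionein Mt2 by 0.92 ± 0.13 and the hypoxia-pathway factor Hif3a by 0.95 ± 0.14 (adjusted p of 2.03e-05, 5.70e-05 and 5.70e-05). Of 14 activity-regulated genes none was called (median fold -0.93), nor was any of 4 estrogen-responsive genes (median fold 0.01). Over all genes 2.3% were called higher in 6M-8W. In 2M-8W, 2M-12W and 6M-12W the glucocorticoid list had 0, 1 and 0 genes called higher (median folds 0.10, 0.20 and 0.09). In 4 of its 20 genes the 6M-8W fold exceeded the mean of the other sets, a test that 1.37% of all genes passed.

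Both genes next to Chrna6 on the chromosome and 1 of the 2 next to Slc2a13 were also higher. Chrnb3 lies 3485 bases from Chrna6, and Poteg, on its other side, was called at a low level (0.88 to 1.88 CPM in stressed, 0.17 to 0.44 CPM in control libraries, 2.25 ± 0.60, adjusted p = 0.0235). The folds of Chrnb3 and Poteg did not differ from the mean of the other sets by edgeR's test (adjusted p of 0.309 and 0.229). Over all genes 2.3% were called higher in 6M-8W pituitaries. Lrrk2, a kinase gene known from inherited Parkinson disease, starts 99914 bases from Slc2a13 and stood at 55.6, 49.6, 57.5 and 48.1 CPM in stressed and 33.2, 30.2, 28.0 and 36.8 CPM in control 6M-8W pituitaries. The arms did not overlap (0.72 ± 0.12, adjusted p = 0.000312), and the fold exceeded the mean of the other sets (adjusted p = 0.00627). On the far side of Slc2a13, CN725425 was at 0.13 to 0.29 CPM in stressed and 0.52 to 0.84 CPM in control libraries (-1.48 ± 0.45, adjusted p = 0.0512). The neighbours of Doc2b (Ywhae and Rph3al, adjusted p of 0.965 and 0.903), of Tuba8 (Pex26 and Usp18, 0.617 and 0.362) and the tested one of Nwd2 (0610040J01Rik, 0.540) were not called, and Dthd1 on the other side of Nwd2 was too low to test.

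Genes whose log2 CPM followed each of the 5 most closely over the 32 pituitary libraries differed between them. Chrna6 was followed by Grb7, St5 and Eno3 (r of 0.87, 0.87 and 0.85), and these values stayed at 0.79 to 0.82 over the 28 libraries without the stressed 6M-8W arm. Doc2b was followed by the protease gene Tmprss2 (r = 0.91, and 0.82 over 28) and by Map3k6 and Hif3a of the glucocorticoid list (both 0.86, and 0.71 and 0.75 over 28). Slc2a13 was followed by its neighbour Lrrk2 (0.91, and 0.85 over 28) and the amidating enzyme Pam (0.90, and 0.77). Nwd2 was followed by Esm1, Scn2a1 and Myo1d (0.79, 0.77 and 0.75, and 0.58, 0.62 and 0.56 over 28). Tuba8 was followed by Rnf144a, Srxn1 and Ttc39c (0.71, 0.66 and 0.64, and 0.52, 0.18 and 0.20 over 28). The libraries share sets, so these r describe likeness of pattern and carry no test.

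With the mean standardised level of the 5 genes, the closest genes were Tacc2 (r = 0.86), Map3k6, Arhgap19, Srxn1, Baiap2, Ntrk2, Tbc1d1 and Ttc39c (0.79 for the last). Without the stressed 6M-8W arm their r fell to between 0.11 and 0.58. The genes were picked for that arm, so this fall follows from the choice.

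**Figure D3:**
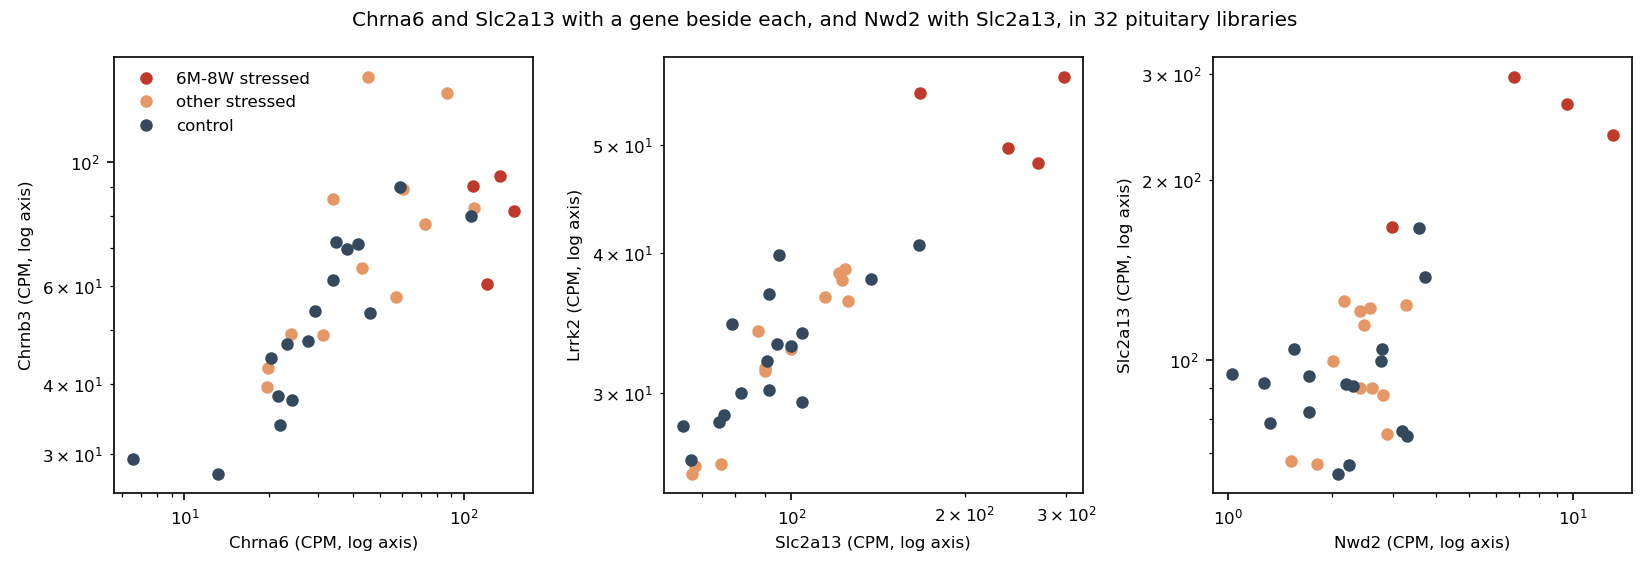
Chrna6 against Chrnb3, Slc2a13 against Lrrk2 and Nwd2 against Slc2a13 in CPM on log axes, 1 point per pituitary library, with the stressed 6M-8W arm in red, other stressed libraries in orange and controls in dark blue. The first and second pairs follow each other over all 32 libraries (r = 0.78 and 0.91) and without the stressed 6M-8W arm (0.82 and 0.85), while the pair of Nwd2 and Slc2a13 has r = 0.75 over all libraries and 0.36 without that arm, for which both genes were picked.

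Transcripts of 2 steroid-making enzymes abundant in ovary were higher in the stressed 6M-8W pituitaries than in their controls. Hsd3b1, a steroid-making enzyme of the ovary and adrenal, stood at 3.92, 3.84, 3.65 and 3.31 CPM in stressed 6M-8W pituitaries and at 0 reads in all 4 controls, a depth that allows at most 0.179 CPM. Cyp11a1, the enzyme that starts steroid synthesis, was at 2.46, 2.27, 1.71 and 3.44 CPM in stressed and 0.22, 0.23, 0.30 and 0.36 CPM in control libraries, and both were called (adjusted p of 1.63e-05 and 0.000316). Hsd3b1 was also found in all 16 libraries of the 2-month sets, stressed and control, at 1.16 to 7.23 CPM, and at 0 in both 6M-12W arms. The 8 ovarian steroid-cell markers summed to 9.06 to 11.3 CPM in stressed 6M-8W pituitaries and 3.28 to 3.88 CPM in controls. Their sums were 12.7 to 15.8 (stressed) and 7.45 to 11.8 CPM (control) in 2M-8W. In 2M-12W they were 7.25 to 19.5 and 7.41 to 13.8 CPM, and in 6M-12W 3.70 to 5.85 and 3.91 to 6.81 CPM. Of the 6 tested in 6M-8W, Hsd3b1 and Cyp11a1 were the only 2 called, where 2.3% of all genes were called higher. Mean levels of Insl3, Lhcgr and Cyp17a1 were lower in stressed than in control pituitaries, and those of Ptgfr, Star and Akr1c18 higher. The 7 granulosa cell markers summed to 52.3 to 64.7 CPM in stressed and 66.5 to 72.3 CPM in control pituitaries. Most of that sum was Inha, which averaged 55.3 CPM in stressed and 65.8 CPM in control pituitaries. The 10 oocyte markers summed to 1.32 to 2.20 CPM in stressed and 0.998 to 1.79 CPM in control pituitaries, with 3 of them at 0 in the stressed arm and 2 in the control arm.

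The 405 genes at least 100 times higher in ovary than in pituitary summed to 79.4 to 117 CPM in stressed 6M-8W pituitaries and 64.2 to 71.3 CPM in controls. The 326 genes at least 1000 times higher summed to 16.4 to 33.7 CPM in stressed pituitaries and 7.32 to 9.01 CPM in controls. In 2M-8W the 405 genes summed to 89.1 to 108 (stressed) and 77.6 to 84.9 CPM (control). In 2M-12W the sums were 69.8 to 120 and 70.8 to 135 CPM. The 326 genes summed to 19.2 to 24.4 and 14.9 to 20.6 CPM in 2M-8W. In 2M-12W they were at 12.2 to 34.0 and 11.1 to 53.9 CPM. In 6M-12W the sums were 66.1 to 70.1 and 62.4 to 75.0 CPM (405 genes), and 6.50 to 7.45 and 5.07 to 9.06 CPM (326 genes). The Hsd3b1 level in stressed 6M-8W pituitaries was 0.0545% of that in stressed 6M-8W ovaries. At that share ovarian RNA would add 0.0354 CPM of Doc2b, whose stressed mean exceeded the control mean by 33.0 CPM. It would add 0.000811 CPM of Tuba8, which gained 2.63 CPM, and 0.00279 CPM of Slc2a13, which gained 157 CPM. Chrna6 and Nwd2, nearly absent from ovary, would gain 6.6e-06 CPM each, where the gains were 107 and 6.29 CPM. The largest share of any ovarian marker, 2.28% for the oocyte gene Ooep, would add 1.48 CPM of Doc2b. These amounts assume that ovarian RNA keeps the proportions of whole stressed ovary, and the part of ovarian RNA in the levels of the 5 genes was not tested.

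**Figure D4:**
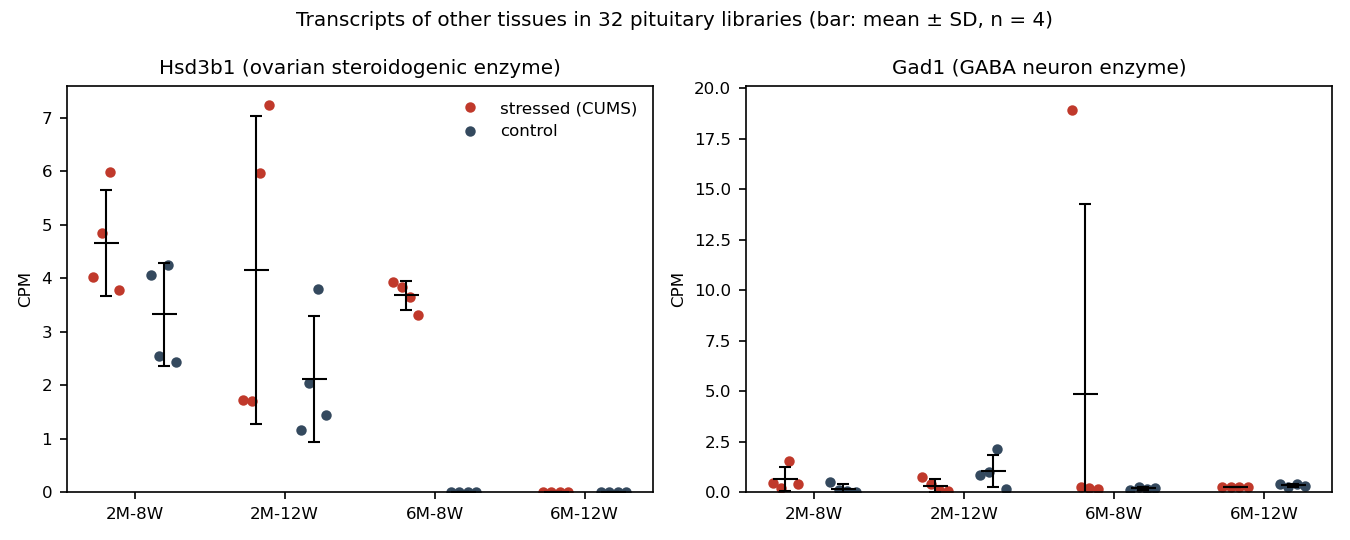
Hsd3b1 (left) and Gad1 (right) in CPM (y axes, from 0) in each pituitary library by set, stressed in red left of controls in dark blue, with bars for the mean ± SD of 4 libraries. Hsd3b1 is at 3.31 to 3.92 CPM in the stressed 6M-8W libraries and at 0 in their controls, and it is also present in both arms of the 2-month sets. Gad1 is high in 1 stressed 6M-8W library, at 18.9 CPM.

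Other cells also differed between the arms of 6M-8W. Of 10 tested neuron markers Gad1, the enzyme that makes GABA, and Th, the enzyme that starts dopamine synthesis, were called higher (adjusted p of 0.0164 and 0.0433). Over all genes 2.3% were. Gad1 stood at 18.9, 0.25, 0.20 and 0.18 CPM in stressed and 0.11, 0.29, 0.18 and 0.24 CPM in control libraries, so that stressed library 1 alone was high. Th was at 4.32, 0.75, 1.61 and 1.84 CPM in stressed and 0.28, 0.98, 0.36 and 0.72 CPM in control libraries. The 11 neuron markers summed to 136 to 188 CPM in stressed and 105 to 130 CPM in control libraries. Library 1, with the Gad1, was the lowest stressed library for 4 of the 5 genes and the highest for Doc2b, at 41.8 CPM. The part of neuronal RNA in the levels of the 5 genes was not tested.

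The 5 corticotrope markers, led by Pomc, the precursor of ACTH, summed to 13479 to 24663 CPM in stressed 6M-8W pituitaries and 7816 to 11749 CPM in controls, with Tbx19 and Pomc called higher (0.82 ± 0.14, adjusted p = 0.000334, and 0.93 ± 0.24, adjusted p = 0.0197). The sum was also higher, with no overlap, in the stressed arm of each other set. The 4 melanotrope markers, which also include Pomc, summed to 13791 to 25214 CPM in stressed and 8052 to 12195 CPM in control 6M-8W pituitaries. Markers of stem and folliculostellate cells summed to 353 to 408 CPM in stressed and 268 to 281 CPM in control 6M-8W libraries. Their sum was also higher with no overlap in stressed 2M-8W (359 to 433 against 275 to 328 CPM) and 6M-12W pituitaries (350 to 379 against 295 to 323 CPM). In 2M-12W the arms overlapped. Pituicyte markers summed to 45.8 to 135 CPM in stressed and 87.8 to 113 CPM in control 6M-8W libraries. The part of these cells in the levels of the 5 genes was not tested.

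Reads shared with other genes limit some of the counts. Of the stretches of 50 bases in the transcripts, 4.50% in Doc2b, 13.7% in Nwd2 and 14.7% in Tuba8 also occur in other annotated genes, 0.0308% in Slc2a13 and none in Chrna6. Tuba8 shares them with Tuba3a and Tuba3b and with the antisense gene Gm15856, Doc2b with the overlapping Gm12339 and Nwd2 with the overlapping Gm9954. The strand of the library is not stated, so reads of an overlapping pair on opposite strands cannot be told apart. Gm12339 stood at 0.39 to 0.88 CPM in stressed and 0.18 to 0.61 CPM in control 6M-8W pituitaries, Gm9954 at 0.83 to 1.61 CPM in stressed and 0.06 to 0.50 CPM in control pituitaries, and Gm15856 at 0 in stressed and at most 0.058 CPM in control pituitaries. All lay below the levels of the gene each overlaps.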

How the data were processed

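Bulk RNA sequencing of 32 pituitaries and 31 ovaries was used. Libraries were made from chloroform-extracted total RNA with a NEBNext Ultra II kit, per the labels' protocols. The authors deposited, for each tissue, raw counts per gene and FPKM, with gene positions of GRCm38. For the aligner, counter, annotation and strandedness the entry is: not given in the sources used here. Deposited FPKM lay within 1% of the count over length and library total for 100% of values and were used only to compare levels between genes. None of 93 replicate pairs held the same counts.

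Tissues were fitted apart, each with 8 groups in 1 model, with edgeR 4.0.16 in R 4.3.3: filterByExpr (17001 pituitary and 17766 ovary genes kept of 34745), TMM factors, the quasi-likelihood F test and a Benjamini-Hochberg adjusted p under 0.05. The SE of a log2 fold is its size over the square root of F. Correlations used log2 CPM with a prior count of 2. On simulated counts for the 6M-8W comparison, with 17001 pituitary genes, 93% of 2-fold and 100% of 4-fold changes were recovered and 3.98% of calls were false. With 17766 ovary genes the shares were 81%, 99% and 5.26%. The changes were placed only in genes averaging at least 2 CPM. Counts were drawn from the fitted model with no other differences between sets. The shares therefore do not cover lower genes or effects of set or handling.

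Shared sequence was searched with 50-base stretches of GENCODE vM21 transcripts. Promoters came from RefSeq (GRCm38.p6). A test of the 5 genes between control pituitaries had been planned and is not given, because those libraries enter the folds used to pick the genes.

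The 5 genes and all lists were chosen with earlier results of these data known. Beyond the 5, genes were named by rule: the nearest protein-coding gene on each side, the 8 genes most correlated with their mean standardised level and the 3 with each (log2 CPM averaging 1 or more, no predicted genes; 1 gene that this rule names is not reported here), the called genes of each list (at most 4, smallest p first), Hsd3b1 and the leading ovarian markers. Chrnb2, Snap25, Vamp2, Ooep, Inha and the ovarian steroid-cell markers that were not called were named after their values were seen. Alternatives were DESeq2 1.42.0, RLE size factors, no filter, a replicate block, fits limited to each comparison's groups, single libraries left out and, added after seeing the data, 6M-12W control pituitaries 3 and 4 left out.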

Additional observations from a re-analysis of the deposited data

Results flagged for a closer look

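In groups of 4 libraries, 1 library stood apart from the rest by Dixon's 95% limit in 4 of 74 groups examined, and chance flags about 1 group in 20. Doc2b reached 27.0 CPM in stressed 2M-8W pituitary 2, while the other 3 stressed libraries of that group lay at 14.5 to 14.8 CPM. Without it the 2M-8W fold of Doc2b was 0.42. Slc2a13 was at 64.8 CPM in 6M-8W control pituitary 3, with the other controls at 91.5 to 94.4 CPM. Gad1 stood at 18.9 CPM in stressed 6M-8W pituitary 1, against 0.25 CPM or less in the other 3, and at 1.54 CPM in 1 stressed 2M-8W pituitary.

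The stress effect on Doc2b in ovary differed between sets by a test of the difference itself. The 6M-8W fold minus the mean of the other 3 sets was -0.53 (log2, adjusted p = 0.0218 in edgeR), a test that 4.09% of ovary genes passed. It stayed past the threshold in 31 of 35 alternatives, with adjusted p up to 0.0647. Stressed 6M-8W ovaries were lower in 4 of 4 libraries than all controls, as for 5.57% of ovary genes. The 6M-8W fold itself was not called (adjusted p = 0.152 in edgeR).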

How the results depend on the processing

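In 6M-8W pituitaries the 5 genes kept the direction of their folds under all 13 alternatives. With 1 library left out the fold ran from 2.41 to 2.73 for Chrna6, 2.42 to 2.67 for Doc2b, 1.83 to 2.42 for Nwd2, 0.73 to 0.95 for Tuba8 and 1.38 to 1.64 for Slc2a13. Tuba8 passed the threshold in 12 of these 13 (adjusted p = 0.0508 without stressed library 4). Of 833 alternatives for folds 26 changed sign, none of a called value. In pituitary stress folds these 8 were Nwd2 in 2M-8W (0.089, 0.12), Slc2a13 in 2M-8W (-0.021), 2M-12W (-0.039, -0.052, -0.067) and 6M-12W (0.074) and Chrna6 in 6M-12W (0.10). Between control pituitaries 8 changed, Chrna6 in 6M-12W against 2M-12W (0.016, 0.18, 0.013 and, without 6M-12W controls 3 and 4, 0.49) and in 2M-12W against 2M-8W (0.16), and Tuba8 in 6M-12W against 2M-12W (-0.008, -0.0091 and, without 6M-12W controls 3 and 4, -0.084). In ovary 10 changed, Tuba8 in 6M-12W (0.15) and in the difference (-0.19, -0.073, -0.0601), and Slc2a13 in 2M-8W (-0.10, -0.031), 6M-8W (0.086, 0.11, 0.065) and the difference (-0.0026). All rested on leaving out 1 library except where 2 are named. Over single libraries left out the far ends of the ovary values were -0.40 and 0.26 for Tuba8 (6M-12W, difference) and 0.20, -0.22 and 0.34 for Slc2a13 (2M-8W, 6M-8W, difference). Doc2b in 2M-12W ovary was called in 3 alternatives (0.32 by DESeq2, and 0.40 and 0.38 without stressed ovary 4 or control ovary 1).

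Counts of called genes moved more. By DESeq2 they were 116, 228, 142 and 452 in pituitary (2M-8W, 2M-12W, 6M-12W, the 6M-8W difference), 361 for 2M-12W against 2M-8W controls, and 1699, 607 and 1468 in ovary (2M-8W, 6M-8W, the difference). In fits of own groups only they were 18 and 7 in pituitary (2M-8W, 6M-12W), 2516 and 92 in the 2 control comparisons, and 2, 0 and 99 in ovary (2M-8W, 2M-12W, 6M-8W). Without the filter the ovary had 84 (6M-8W) and 460 (difference), and without 6M-12W controls 3 and 4 the control comparison had 1419. With 1 library left out the pituitary counts ran from 41 to 76 (2M-8W), 34 to 178 (2M-12W), 436 to 991 (6M-8W), 22 to 92 (6M-12W), 84 to 397 (difference), 3528 to 6226 and 62 to 315 (controls), and the ovary counts from 36 to 1673, 332 to 1724, 4 to 336, 550 to 2266 and 101 to 1234 (difference). The cause was not tested.

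Same-numbered stressed and control libraries deviated from their group means with correlations of -0.069 to 0.267 in pituitary and -0.241 to 0.201 in ovary. The labels link these samples by number only, and whether they share handling was not tested. With the replicate number as a block 877 genes were called in 6M-8W pituitary, 286 in the difference, and the folds were 2.70 for Chrna6, 2.55 for Doc2b, 2.09 for Nwd2, 0.87 for Tuba8 and 1.48 for Slc2a13. Of 16 stressed pituitaries 9, and of 15 stressed ovaries with a same-numbered control 4, correlated best with the control of their own number. Nwd2 and Tuba8 rest on few reads, which limits the precision of their folds.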
